A study of Mus musculus with 8 samples.

Results

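The genes of the circadian clock were examined in the ventricles of the mouse heart after myocardial infarction (MI). They are 10 named genes, Arntl (also called Bmal1), Clock, Npas2, Per1, Per2, Per3, Cry1, Nr1d1, Nr1d2 and Dbp, and were chosen by name and not by their values, out of 15156 genes that had a probe well above background. For each gene the probes were those designed to one of its RefSeq transcripts. The brightest probe that passed the detection filter (well above background on at least 4 arrays) stood for the gene. All 10 genes had such a probe, among 34038 retained probes. Dbp had 2 retained probes and each of the others had 1.

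Adult male C57BL/6 mice had the anterior interventricular artery ligated for good (MI, n = 4) or underwent surgery without the ligation (sham, n = 4). The ventricles were taken 24 hours after surgery, and total RNA of each mouse was hybridised to 1 array of the Agilent SurePrint G3 mouse type in 1 colour (Cy3). Per the paper, every mouse of both groups also had a heart scan (FDG-PET) at 24 hours. Its methods describe the scan as done under isoflurane, after injections of Acipimox and of FDG. The labels name no engineered allele for either group. The sample was ventricular tissue as a whole, so that infarcted and surviving muscle were measured together, and the clock time of surgery and of tissue collection was not given in the sources used here.

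The circadian clock is a feedback loop of transcription. ARNTL pairs with CLOCK or NPAS2 and switches on genes with an E-box in their promoter, among them the Per, Cry and Nr1d genes and Dbp, and the PER and CRY proteins then inhibit the pair that made them. NR1D1 and NR1D2 repress Arntl in turn, and DBP drives genes with a D-box, so that in the heart, as in other tissues, Arntl and Npas2 peak at nearly the opposite phase of the day from Dbp and Per3.

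Per the file headers, all 8 arrays lay on 1 slide, were read in 1 scan, and stood in 2 rows with both groups in each row. The share of spots well above background was 58.6% to 66.4% per array, and with 4 arrays a group the precision of each value is limited. Levels below are log2 signals on the scale of the authors, who normalized between arrays with spike-in probes. On this scale whole arrays differed, with a median of all retained probes between 7.38 and 8.0, and the median of MI minus sham over all retained probes was 0.12. The differences of the 10 genes are therefore also given after scaling every array to its own 75th percentile, where the median over all retained probes was -0.02. A gene was called when its p in limma, adjusted by Benjamini-Hochberg over all retained probes, was under 0.05. Nothing in the labels says more of the replicates than that they are separate mice of a group.

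Promoter sequences are given first, since the loop acts through sites of this kind. The 250 bases before 13 annotated start sites of 9 of the 10 genes were searched on both strands for CACGTG (the E-box), CACGTT (a variant E-box), TTATGTAA (the D-box) and AGGTCA (the core site that ROR and NR1D proteins share). Sequences are from RefSeq on build GRCm38.p6, with no entry for Per2. The E-box was found in Cry1 and in 1 of the 2 starts of Per1. These are 2 of the 13 starts, where 6.02% of 32851 mouse promoters of the same length hold it. The variant E-box was found in Cry1 and Nr1d1 (3.85% of all promoters), and the D-box in Per3 alone (0.819%). The core site was found in Nr1d2, in the same start of Per1 and in 1 of the 3 starts of Clock (14%). Arntl, Dbp and Npas2 held no match. A match is a description of the letters in the window and was not tested as a binding site.

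The 5 promoters below each hold at least 1 match and are shown as examples, 1 start for each gene and without that of Clock. They are written 5′ to 3′ on the strand of the gene, with matches in capitals. Cry1 is on the minus strand at chr10:85185055-85185304, and its capitals mark the variant E-box read on the opposite strand and, nearer the start, the E-box.
Cry1: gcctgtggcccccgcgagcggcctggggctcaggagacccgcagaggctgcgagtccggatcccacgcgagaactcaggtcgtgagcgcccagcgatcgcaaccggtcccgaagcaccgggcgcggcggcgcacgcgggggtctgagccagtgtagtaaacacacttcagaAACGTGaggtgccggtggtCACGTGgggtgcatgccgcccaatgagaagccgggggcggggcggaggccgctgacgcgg
Per1 is on the plus strand at chr11:69098699-69098948, and its capitals mark the E-box and the ROR core site read on the opposite strand.
Per1: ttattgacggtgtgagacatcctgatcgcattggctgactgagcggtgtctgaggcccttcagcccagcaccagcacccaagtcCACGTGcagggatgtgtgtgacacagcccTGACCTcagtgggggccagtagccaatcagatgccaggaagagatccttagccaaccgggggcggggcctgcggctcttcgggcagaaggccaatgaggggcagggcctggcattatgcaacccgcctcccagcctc
Per3 is on the minus strand at chr4:151044666-151044915, and its capitals mark 2 copies of the D-box.
Per3: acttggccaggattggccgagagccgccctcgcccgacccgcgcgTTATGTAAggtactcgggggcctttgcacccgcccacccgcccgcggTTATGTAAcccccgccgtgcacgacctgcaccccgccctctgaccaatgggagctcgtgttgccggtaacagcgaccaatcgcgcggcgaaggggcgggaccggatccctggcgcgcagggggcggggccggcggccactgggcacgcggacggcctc
Nr1d1 is on the minus strand at chr11:98775378-98775627, and its capitals mark the variant E-box read on the opposite strand.
Nr1d1: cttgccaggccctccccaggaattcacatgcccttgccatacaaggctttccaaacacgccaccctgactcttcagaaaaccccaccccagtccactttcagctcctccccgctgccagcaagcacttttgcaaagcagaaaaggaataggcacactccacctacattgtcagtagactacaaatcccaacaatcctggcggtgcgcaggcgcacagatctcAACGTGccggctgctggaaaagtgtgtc
Nr1d2 is on the minus strand at chr14:18239107-18239356, and its capitals mark the ROR core site.
Nr1d2: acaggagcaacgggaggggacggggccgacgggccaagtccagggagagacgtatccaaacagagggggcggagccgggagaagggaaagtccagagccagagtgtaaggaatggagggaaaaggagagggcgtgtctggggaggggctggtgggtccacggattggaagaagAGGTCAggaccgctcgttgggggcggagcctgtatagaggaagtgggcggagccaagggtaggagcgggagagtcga

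In MI mice 1 of the 10 clock genes passed the test. Cry1 rose 1.67-fold, where 6.30% of all retained probes were called higher and 1.31% lower. No clock gene was called at over 2-fold, a change reached by 3.07% of all probes upward and 0.405% downward, and none of the 10 differed by 2-fold in either direction. At an unadjusted p under 0.05 in limma there were 4 clock genes, Per1, Cry1, Nr1d2 and Dbp, where 19.9% of all retained probes passed. Significance analysis of microarrays called Cry1 at any fold and 0 genes at over 2-fold, where it called 12.5% of probes higher and 0.549% lower at any fold. The median log2 difference of the 10 genes was -0.04, against 0.12 over all probes, and 5 were higher and 5 lower. After scaling to the 75th percentile, Cry1 was called higher and Nr1d2 lower, where 8.70% of all probes were called higher and 8.84% lower, and the median of the 10 was -0.22.

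**Figure D1:**
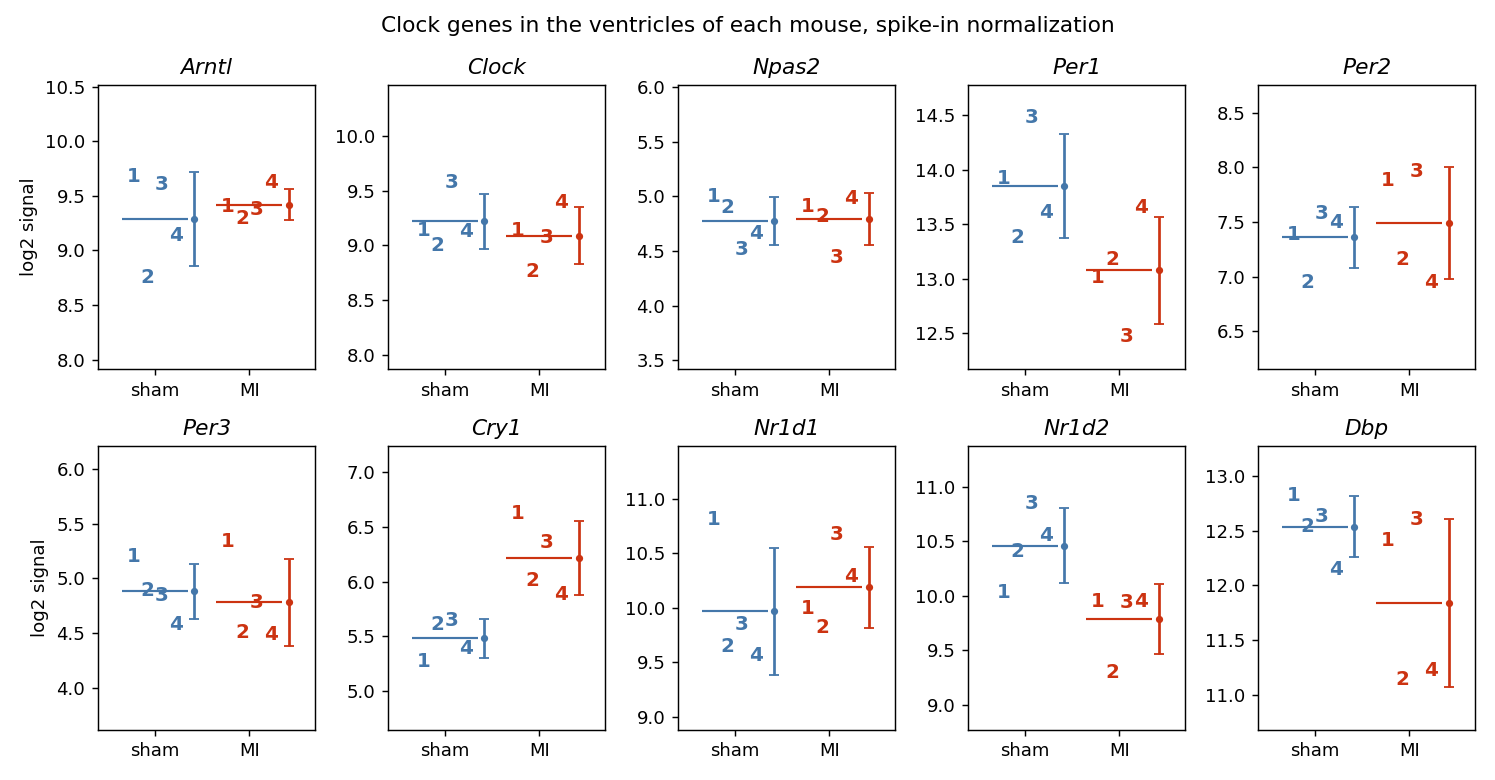
Log2 signal (vertical axis, spike-in normalization) of the 10 clock genes in each of the 8 mice, with numerals for the mice of the sham group (blue) and of the MI group (red), lines at the group means and bars of 1 SD at the right of each group. Every panel spans the same range of log2 units. The groups do not overlap for Cry1, with MI above 5.64, and for Nr1d2, with MI below 10.03.

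The activators Arntl, Clock and Npas2 were not called. Arntl, the partner without which the loop does not run, was 9.68, 8.75, 9.60 and 9.14 in sham mice and 9.40, 9.29, 9.37 and 9.62 in MI mice. The groups overlapped, and the MI mice lay within the range of the sham mice. The difference was 0.13 ± 0.22 (SE, n = 4 per group; adjusted p = 0.81 in limma), with a 95% interval from -0.33 to 0.59, so that a 2-fold change in either direction lies outside it. It was 0.01 after scaling to the 75th percentile.

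Clock, whose protein pairs with ARNTL, was 9.14, 9.0, 9.58 and 9.13 in sham mice and 9.14, 8.76, 9.07 and 9.39 in MI mice. The groups overlapped, with a difference of -0.12 ± 0.21 (SE; limma adjusted p = 0.807) and an interval from -0.56 to 0.31. The difference was -0.25 on the scaled values (limma adjusted p = 0.249). Npas2, which can stand in for Clock, gave a dim probe, with processed signals of 11.9 to 22.2 before normalization. It was 5.0, 4.90, 4.51 and 4.66 in sham mice and 4.91, 4.82, 4.44 and 4.98 in MI mice, and the groups overlapped almost fully. Its difference was 0.02, and -0.19 after scaling, and neither was called.

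Of the repressors, Cry1 alone was called. Cry1, an inhibitor of the ARNTL and CLOCK pair, was 5.27, 5.61, 5.64 and 5.39 in sham mice and 6.62, 6.01, 6.36 and 5.88 in MI mice. Every MI mouse was above every sham mouse, which held in this direction for 8.46% of all retained probes. The difference was 0.74 ± 0.22 (SE; limma adjusted p = 0.0321), with an interval from 0.30 to 1.18, and the exact two-sided permutation test gave p = 0.0286, the smallest that 4 against 4 mice allow. The probe was dim, with processed signals of 26.6 to 34.3 in sham mice and 51.6 to 78.8 in MI mice, and the size of the difference depended on the processing. It was 0.78 after scaling to the 75th percentile (limma adjusted p = 0.0387), 0.17 with an own fit of the vsn model (limma adjusted p = 0.331), 0.30 after normexp correction (limma adjusted p = 0.0614) and 0.62 with 1 constant for all arrays (limma adjusted p = 0.121). Without sham mouse 1, sham mouse 4, MI mouse 1 or MI mouse 3 it was no longer called, with differences of 0.67, 0.71, 0.61 and 0.69 and limma adjusted p-values of 0.0802, 0.0934, 0.141 and 0.0943, nor was it called with no filter on detection (limma adjusted p = 0.19).

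Per1, a PER repressor that also answers directly to glucocorticoids, was 13.92, 13.38, 14.48 and 13.61 in sham mice and 13.01, 13.18, 12.47 and 13.65 in MI mice. Of the MI mice, only mouse 4 came within the range of the sham mice, and mouse 3 was the lowest. The difference was -0.77 ± 0.26 (SE; limma adjusted p = 0.0666), with an interval from -1.29 to -0.24 and an exact permutation p of 0.0857, and was not called. On scaled values it was -0.89 (limma adjusted p = 0.0714) and the groups no longer overlapped. The share of all probes without overlap on that scale was not counted. Leaving out sham mouse 2, sham mouse 4 or MI mouse 4 brought Per1 past the threshold, with limma adjusted p-values of 0.0218, 0.0433 and 0.0143. So did detection on all 8 arrays (limma adjusted p = 0.0446) and 1 constant for all arrays (limma adjusted p = 0.0344). Per1 was farther from the threshold with the own fit of the vsn model (limma adjusted p = 0.229). The same held without sham mouse 3 (-0.56, limma adjusted p = 0.233) or MI mouse 3 (-0.57, limma adjusted p = 0.251).

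Per2, the other main PER repressor, was 7.39, 6.95, 7.58 and 7.50 in sham mice and 7.88, 7.16, 7.96 and 6.95 in MI mice. The MI mice lay on both sides of the sham mice, 1 and 3 above all of them and 2 and 4 in their lower part. The difference was 0.13 ± 0.24 (SE; limma adjusted p = 0.825). It was 0.00 after scaling.

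Per3, a PER protein that the loop can run without, passed detection on 5 arrays only, with processed signals of 9.08 to 28.0. Levels were 5.20, 4.89, 4.84 and 4.58 in sham mice and 5.34, 4.50, 4.78 and 4.49 in MI mice. The groups overlapped, with MI mouse 1 highest and MI mice 2 and 4 lowest. The difference was -0.10 (limma adjusted p = 0.858), and -0.50 after scaling (limma adjusted p = 0.351).

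Both nuclear receptors of the clock repress Arntl, and neither was called on spike-in values of all 8 mice without a block. Nr1d2 was 10.03, 10.41, 10.85 and 10.55 in sham mice and 9.95, 9.30, 9.94 and 9.95 in MI mice. Every MI mouse was below every sham mouse, which held in this direction for 2.70% of all retained probes, although sham mouse 1 was only 0.08 above the nearest MI mice. The difference was -0.68 ± 0.23 (SE; limma adjusted p = 0.0675), with an interval from -1.14 to -0.21 and an exact permutation p of 0.0286, and was not called. It was called after scaling to the 75th percentile (-0.81 ± 0.19, limma adjusted p = 0.0191) and after quantile normalization (limma adjusted p = 0.0169). Normexp correction (limma adjusted p = 0.00667) and leaving out sham mouse 1 (-0.82, limma adjusted p = 0.0276) also brought it past the threshold. The own fit of the vsn model (limma adjusted p = 0.131) did not. Nor did leaving out sham mouse 3 (-0.55, limma adjusted p = 0.2) or MI mouse 2 (-0.51, limma adjusted p = 0.131).

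Nr1d1 was 10.81, 9.65, 9.85 and 9.56 in sham mice and 9.99, 9.82, 10.67 and 10.29 in MI mice. The groups overlapped, with sham mouse 1 the highest of all. Sham mice 2 and 4 were below every MI mouse, and sham mouse 3 (9.85) was below all of them but MI mouse 2 (9.82). The difference was 0.23 ± 0.26 (SE; limma adjusted p = 0.689), with an interval from -0.30 to 0.75, and 0.10 after scaling (limma adjusted p = 0.819). Whether the responses of Nr1d1 and Nr1d2 differ was not tested.

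Dbp, the output factor of the loop, was 12.82, 12.54, 12.63 and 12.15 in sham mice and 12.41, 11.14, 12.60 and 11.22 in MI mice. MI mice 1 and 3 were among the sham mice and MI mice 2 and 4 were below all of them. The difference was -0.69 ± 0.28 (SE; limma adjusted p = 0.143), with an interval from -1.27 to -0.12 and an exact permutation p of 0.2, and was -0.82 after scaling (limma adjusted p = 0.0719). Neither was called. The second probe of Dbp gave 12.65, 12.35, 12.38 and 11.86 in sham mice and 12.26, 10.97, 12.66 and 11.02 in MI mice. It had the same MI mice low, with a difference of -0.58 (limma adjusted p = 0.28). Without MI mouse 3 the difference of the brighter probe was -0.95 and passed the threshold (limma adjusted p = 0.0174), whereas without MI mouse 2 or 4 it was -0.46 or -0.49 (limma adjusted p = 0.329 and 0.348).

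**Figure D2:**
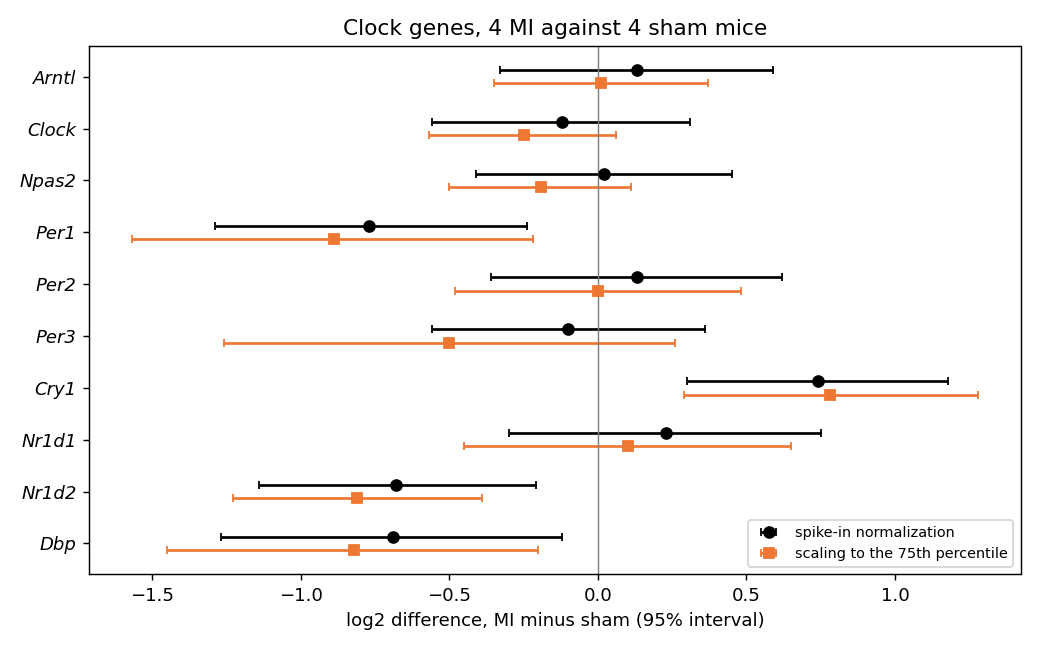
Log2 difference of MI minus sham (horizontal axis) with 95% intervals from limma for the 10 clock genes, under spike-in normalization (black circles) and after scaling to the 75th percentile (orange squares), with 4 mice per group. The intervals of Cry1 lie above 0 and those of Per1, Nr1d2 and Dbp below 0 under both, before adjustment over all probes.

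The spread within groups set several clock genes apart from most probes. The pooled within-group SD of Dbp was 0.58, above 97.2% of all retained probes, and that of Nr1d1 was 0.49 (above 93.2%) and of Per1 0.48 (above 92.9%). Npas2 (on dim signals) and Clock, with 0.23 and 0.26, were above 22.3% and 32.8%. The constants that the normalization adds per array, 3.163 to 19.58, reach the size of the Npas2 signals (11.9 to 22.2). Their part in its spread was not tested. Over all retained probes the median SD was 0.30, and over the 10 clock genes 0.33. After scaling to the 75th percentile, which removes the differences between whole arrays, these medians were 0.23 and 0.34, and the genes with the widest spread were Per3 (0.57, above 94.2% of probes, on dim signals), Per1 (0.50, above 91.4%) and Dbp (0.46, above 89.0%). The SD of Dbp was 0.77 in MI and 0.28 in sham mice, and 0.58 and 0.29 after scaling. That of Per1 was 0.49 in MI and 0.48 in sham mice on spike-in values, and 0.65 and 0.27 after scaling. Whether the spread of Dbp or of Per1 differs between the groups was not tested.

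The MI mice did not vary in the same way for all clock genes. After scaling to the 75th percentile, where levels are log2 signals relative to that percentile, Dbp was 3.99, 4.19, 3.71 and 3.53 in sham mice and 3.44, 2.73, 3.58 and 2.37 in MI mice. Tef and Hlf, which belong to the same family of PAR bZIP factors as Dbp and are named here after their values were seen, were lowest in the same mice. Tef was 5.06, 5.09, 4.98 and 4.79 in sham mice and 4.92, 4.39, 4.92 and 3.81 in MI mice, and Hlf was 0.04, -0.23, -0.01 and -0.46 in sham mice and -0.28, -1.1, -0.09 and -1.03 in MI mice. Per3 was -4.28, -4.79, -4.31 and -4.98 in sham mice and -4.40, -5.55, -4.56 and -5.86 in MI mice. For all 4 genes MI mice 2 and 4 were below every other mouse. The same held for 9.09% of 33865 retained probes with a value on every array, so the pattern is not limited to the clock. It held among the other listed genes for Cry2, Rora, Tsc22d3, Klf9 and the fibroblast marker Dcn, and for the summed level of 5 fibroblast markers, which was 6.97 and 7.26 in MI mice 2 and 4 and 7.69 to 8.16 in the other mice. The part of these markers in the pattern was not tested.

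Among the MI mice, the activators varied the other way on this scale. Arntl was 0.82, 0.34, 0.66 and 0.49 in sham mice and 0.40, 0.86, 0.34 and 0.75 in MI mice, with MI mice 2 and 4 the higher. Npas2 was -4.62, -4.77, -4.70 and -4.82 in sham mice and -5.23, -4.72, -4.99 and -4.76 in MI mice, again with MI mice 2 and 4 the higher. The same order held for Clock (0.14, 0.32, 0.03 and 0.51 in MI mice 1 to 4) and for the repressor Per1 (4.04, 4.79, 3.45 and 4.81). The share of all probes with this order among the MI mice was not counted, so the order is not shown to be particular to these genes. In a stricter order, MI mice 2 and 4 were above every other mouse for 5.08% of 33865 probes, but for none of the clock genes. On spike-in values the order did not hold for Arntl (9.40, 9.29, 9.37 and 9.62 in MI mice 1 to 4) or Npas2 (4.91, 4.82, 4.44 and 4.98). The within-mouse difference of Arntl minus Dbp, in which the scale of an array cancels, was -3.14, -3.79, -3.04 and -3.01 in sham mice and -3.01, -1.85, -3.23 and -1.59 in MI mice. MI mice 2 and 4 thus had more Arntl relative to Dbp than any other mouse, by over 1 log2 unit, while MI mice 1 and 3 were within the range of the sham mice. These mice were picked out by these values, so no test is given. Mice 1 and 2 of the MI group shared 1 row of the slide and mice 3 and 4 the other. The part of the position on the slide in these values was not tested.

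**Figure D3:**
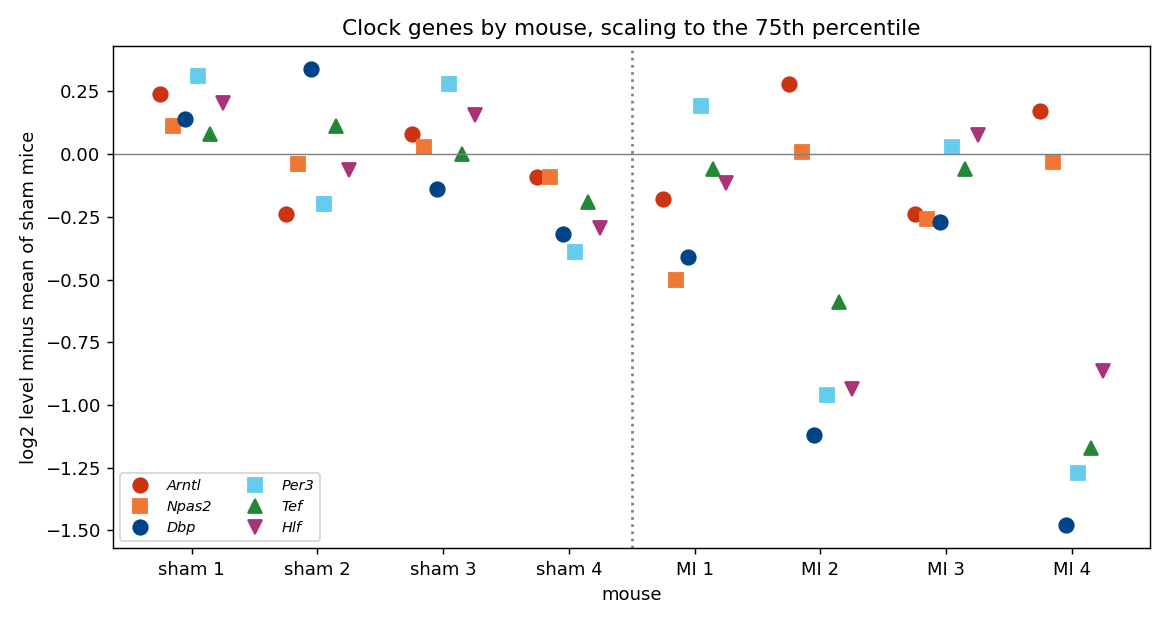
Log2 level relative to the mean of the 4 sham mice (vertical axis), after scaling each array to its 75th percentile, for Arntl, Npas2, Dbp, Per3, Tef and Hlf in each of the 8 mice along the horizontal axis. Dbp, Per3, Tef and Hlf lie below all other mice in MI 2 and MI 4, while Arntl lies higher there than in MI 1 and MI 3.

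Correlations of the deviations from the group means were computed over the 8 mice for all 45 pairs of clock genes. Under spike-in normalization 32 pairs were positive and 13 negative, 0 pairs had an exact permutation p under 0.05, and the smallest adjusted p was 0.807. On values scaled to the 75th percentile 19 were positive and 26 negative, 3 pairs had an exact permutation p under 0.05, and none passed the adjustment over 45 pairs, with 0.445 as the smallest adjusted p. These 3 were Clock with Per1 (r = 0.785, rho = 0.667, exact p = 0.0382 and 0.111), Arntl with Npas2 (r = 0.815, rho = 0.786, exact p = 0.0399 and 0.0903) and Clock with Nr1d2 (r = 0.661, rho = 0.667, exact p = 0.0451 and 0.0538). Without the 2 mice farthest from the median, r was 0.85, 0.801 and 0.548.

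Arntl with Dbp, the pair of opposite phase, changed sign with the scaling. Under spike-in normalization r was 0.10 (exact permutation p = 0.682) and rho 0.31 (exact permutation p = 0.281), and r was 0.0179 without sham mice 1 and 2. After scaling, r was -0.675 (exact permutation p = 0.153) and rho -0.667 (exact permutation p = 0.174), and r was -0.535 without MI mice 2 and 3. Neither passed. All genes of 1 mouse share the scale of its array. On spike-in values a shift of a whole array enters every pair, and on scaled values the percentile of the array does. The part of either in the change of sign was not tested.

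**Figure D4:**
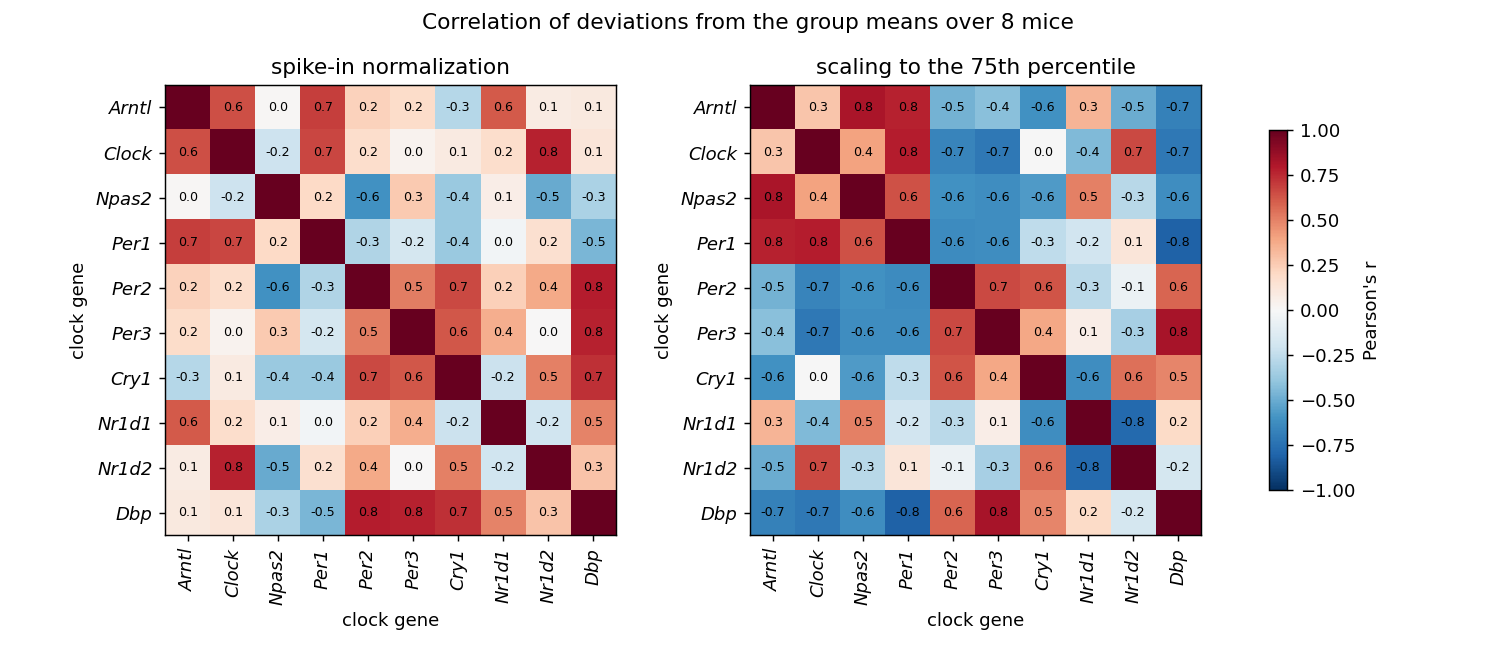
Pearson's r (colour scale from -1 to 1, rounded in the cells) of deviations from the group means over 8 mice for each pair of the 10 clock genes, which label both axes, under spike-in normalization (left) and after scaling to the 75th percentile (right). The right panel holds a block of Arntl, Clock, Npas2 and Per1 that is positive within itself and negative against Per2, Per3 and Dbp, and no pair passed the adjustment.

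By the same measure the genes most like Arntl within groups, among 10428 genes on spike-in values, were Elk3, Mcc, Rasgrp3, Arl15 and Ablim3, with r from 0.968 to 0.992, and those most opposite were Gdf15, Rergl, Mesp2, Ddx25 and Mrgprg, with r from -0.903 to -0.772. The genes most like Dbp were Opn4, Zfp597, Snx22, Pigc and Vcam1, with r from 0.988 to 0.993. After scaling to the 75th percentile, 0 of the 5 genes most like Arntl and 2 of the 5 most like Dbp, Opn4 and Pigc, were the same. They were picked as extremes among that many genes over 8 mice and are a description.

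Of 25 further genes of the clock and its outputs, 23 had a retained probe, and Arntl2 and Fbxl21 had none. In MI mice 2 rose and 1 fell, against 6.30% and 1.31% of all probes, and the median difference of the 23 was -0.02. With scaling to the 75th percentile 3 were called higher and 4 lower, against 8.70% and 8.84% of all probes, with a median of -0.15 against -0.02. The 3 that passed under spike-in normalization were outputs that cycle in many tissues. Nampt, the rate-limiting enzyme of NAD salvage, fell from 13.25, 13.31, 13.72 and 13.56 in sham mice to 12.87, 12.00, 12.59 and 13.09 in MI mice, with no overlap and a difference of -0.83 ± 0.23 (SE; limma adjusted p = 0.0252), and -0.95 after scaling. Tspan4, a tetraspanin, rose from 11.81, 11.01, 11.61 and 11.67 to 12.57, 12.17, 12.80 and 12.03, also with no overlap (0.87 ± 0.23, SE; limma adjusted p = 0.0162; 0.75 after scaling). Por, the electron donor of cytochrome P450 enzymes, rose from 12.91, 12.03, 12.93 and 12.52 to 13.78, 12.93, 13.84 and 13.23, with MI mouse 2 level with sham mouse 3 (0.85 ± 0.24, SE; limma adjusted p = 0.030; 0.72 after scaling).

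Among the partners of the loop, 0 of 5 measured genes passed in limma under spike-in normalization, 4 had an unadjusted p under 0.05, and significance analysis of microarrays called 2, Timeless and Bhlhe41, against 19.9% of all probes at that p and 12.5% called higher by the second method. Timeless, a replication fork protein that is related to the fly clock gene, was 9.36 to 9.99 in sham mice and 10.08 to 10.68 in MI mice, without overlap (0.65 ± 0.22, SE; limma adjusted p = 0.0653). After scaling its difference of 0.54 passed (limma adjusted p = 0.0148), and a dimmer probe of it passed on spike-in values (0.69, limma adjusted p = 0.0363). Ciart, a repressor that binds ARNTL, was 7.88 to 8.66 in sham mice and 7.36 to 8.12 in MI mice (-0.56 ± 0.23, SE; limma adjusted p = 0.15), and passed after scaling (-0.73, limma adjusted p = 0.0141). The related repressors Bhlhe40 and Bhlhe41 had differences of 0.59 and 0.70, and Cry2 of -0.08, none of them called. The 3 ROR receptors, which activate Arntl at the site where NR1D proteins repress it, had differences between -0.31 and 0.12, with 0 of 3 at an unadjusted limma p under 0.05 and 0 called by significance analysis of microarrays.

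Of the PAR bZIP group, Tef and Hlf had differences of -0.35 and -0.31, and Nfil3, which represses at the same D-box, of 0.79 ± 0.27 (SE; limma adjusted p = 0.0781; 0.67 after scaling), and none was called in limma. By an unadjusted p under 0.05 and by significance analysis of microarrays 1 of these 3 passed, Nfil3. Over all probes 19.9% had such a p, and the second method called 12.5% higher. On spike-in values, 0 of 4 kinases and ubiquitin ligases that set how long PER and CRY proteins last were called in limma. There, 1 (Btrc) had an unadjusted p under 0.05, and significance analysis of microarrays called 0. For Csnk1d, the kinase that marks PER proteins for decay, the probes disagreed: the brighter had a difference of 0.07 and the dimmer one of 1.1 (limma adjusted p = 0.00271). So did those of Btrc, with -0.50 (limma adjusted p = 0.2) and 0.55 for the dimmer, neither called on spike-in values. After scaling to the 75th percentile the brighter probe of Btrc was called lower (-0.67, limma adjusted p = 0.0169).

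**Figure D5:**
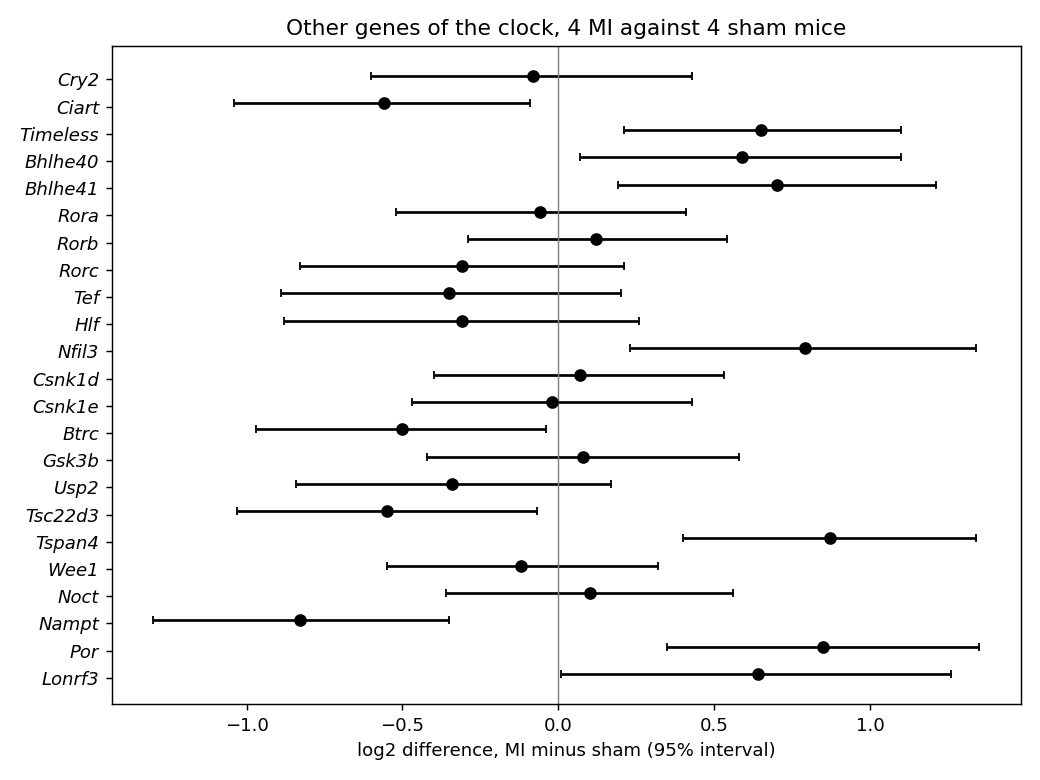
Log2 difference of MI minus sham under spike-in normalization (horizontal axis) with 95% intervals from limma for the 23 further clock genes with a retained probe, 4 mice per group. Nampt lies at -0.83 on the lower side, and Tspan4 and Por at 0.87 and 0.85 on the upper side.

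Per1, a repressor of the loop, and Tsc22d3, a clock output, are both targets of the glucocorticoid receptor. In a list of 6 glucocorticoid-responsive genes, 1 fell and 0 rose in limma, against 1.31% and 6.30% of all probes, and 5 of 6 differences were below 0, with a median of -0.45 against 0.12 over all probes. At an unadjusted p under 0.05 there were 3, Per1, Tsc22d3 and Sgk1, against 19.9% of all probes. Significance analysis of microarrays called Sgk1 lower, against 0.549% of probes. Sgk1, a kinase induced by corticosteroids, was 13.61, 12.91, 13.52 and 13.49 in sham mice and 12.02, 12.51, 12.28 and 12.67 in MI mice, a difference of -1.01 ± 0.22 (SE; limma adjusted p = 0.00336) and of -1.14 after scaling. Tsc22d3 was 13.78, 13.70, 14.29 and 13.93 in sham mice and 13.69, 12.73, 13.68 and 13.40 in MI mice, with no overlap and a difference of -0.55 (limma adjusted p = 0.169), which passed after scaling (-0.68, limma adjusted p = 0.0124). Fkbp5, another glucocorticoid target, had a difference of 0.29, and 0.16 after scaling, and was not called.

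Of the summed marker lists, that of leukocytes alone separated the groups on spike-in values. The summed level of 7 leukocyte markers was 16.32 to 16.93 on the log2 scale in sham mice and 17.79 to 18.35 in MI mice. Of the 7, 4 were called higher, S100a8, S100a9, Ptprc and Ccr2, against 6.30% of all probes. Csf3r and Lyz2 were not called, with differences of 0.08 and 0.15. Probes of Itgam disagreed, with 0.14 for the brightest and 1.71 for a dimmer one. The 8 cardiomyocyte markers, all well above background on every array, had summed levels of 20.82 to 21.33 in sham mice and 20.74 to 21.32 in MI mice, and on spike-in values 0 of the 8 were called in limma or by significance analysis of microarrays, with 2, Actn2 and Pln, at an unadjusted p under 0.05. After scaling, Pln, which restrains the calcium pump of the sarcoplasmic reticulum, was called lower (-0.68, limma adjusted p = 0.00643). Of the fibroblast and endothelial lists, 0 of 5 genes each were called in limma, with summed levels of 16.22 to 16.99 in sham against 15.36 to 16.72 in MI mice and of 14.21 to 14.65 against 14.07 to 14.52. On scaled values the fibroblast sums did not overlap, with 7.80 to 8.16 in sham and 6.97 to 7.69 in MI mice, and 0 of 5 fibroblast genes were called. Pecam1 was called higher there (0.53, limma adjusted p = 0.0389). Of the genes of both lists, 0 fibroblast and 2 endothelial genes, Pecam1 and Emcn, had an unadjusted p under 0.05 on spike-in values, and significance analysis of microarrays called the same 2. Over all probes 19.9% had such a p, and 12.5% were called higher by the second method. The part of the leukocyte and fibroblast markers in the values of Cry1, Per1 and Nr1d2 was not tested. In whole tissue, fewer cells of a type and less RNA per cell cannot be told apart.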

How the data were processed

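Total RNA of 4 MI and 4 sham mice was measured on 8 one-colour arrays. The deposited intensities are, per the file headers, Feature Extraction 11.0.1.1 processed signals, background-subtracted and detrended within each array. The deposited log2 values were made by the authors from these signals with limma and vsn on spike-in probes. Each array's scale and added constant were recovered from them and applied to all processed signals.

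Outlier-flagged spots and control probes were dropped, replicate spots averaged, and probes well above background on 4 of 8 arrays kept. Groups were compared in limma 3.58.1 (R 4.3.3) without covariates, with Benjamini-Hochberg adjustment. Correlations used Python 3.11.15 with numpy 2.4.6 and scipy 1.17.1. Limma and significance analysis of microarrays were tested on simulated data. Alternatives were other scalings and background corrections, other detection filters, that second test, the replicate number or array row as a block, and each mouse left out. Normexp used median intensities. Genes were matched by RefSeq accession, and Cd68 had no such probe.

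The genes, gene lists and likeness rule (the 5 genes with the highest or lowest r, with a pooled SD of at least 0.25) were chosen with earlier results of these data known. Genes outside the lists were named by that rule. 1 further clock gene is not reported here.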

Additional observations from a re-analysis of the deposited data

Results flagged for a closer look

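Among 20 groups of 4 mice (10 clock genes in 2 groups), 1 held a value far from the rest, and chance flags about 1 in 20. Nr1d2 in MI mouse 2 was 9.30, while the other 3 MI mice were between 9.94 and 9.95. The gap was 0.983 of the range of the group. After scaling to the 75th percentile MI mouse 2 was at 0.87 and the MI group reached from 0.87 to 1.08.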

How the results depend on the processing

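The number of clock genes called at any fold was 1 (Cry1) under spike-in normalization. It was 2 after scaling to the 75th percentile, 2 after quantile normalization (both Cry1 and Nr1d2), 2 with detection required on all 8 arrays (Per1 and Cry1), 0 with the own vsn fit and 0 with no filter on detection. It was 1 under the alternatives not named in this paragraph, and also under normexp correction (Nr1d2) and with 1 additive constant for all arrays (Per1). Leaving out 1 mouse at a time gave 0 to 2. The number at over 2-fold was 0 throughout. With the replicate block, 2 genes were called (Cry1 and Nr1d2); same-numbered mice had deviations that correlated at 0.24, 0.29, 0.14 and 0.01, so the numbers, which no label ties to a litter or day, were not taken to pair the mice. Under the 75th percentile with the replicate block, a setting chosen after seeing the data like the single constant, 1 was called (Nr1d2).

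The correlation of Arntl with Dbp was 0.10, and turned to -0.675 after scaling to the 75th percentile, -0.624 after quantile normalization and -0.676 after normexp. With 1 mouse left out it was -0.0399 to 0.304. Of 200 recomputed differences of the 10 genes, 162 kept their direction and their side of the threshold, 9 lost the call, 12 gained it and 17 changed sign, all in genes with differences of at most 0.13 in size. Arntl was -0.01 after quantile normalization. Npas2 was -0.19 after scaling to the 75th percentile, with or without the replicate block, -0.31 after quantile normalization, -0.04 after normexp and -0.13 with 1 constant. Per2 was -0.05 after quantile normalization and -0.02 after normexp, and Per3 was 0.08 in the authors' values. With 1 mouse left out, Arntl was -0.05 to 0.26, Npas2 -0.06 to 0.14, Per2 -0.03 to 0.31 and Per3 -0.29 to 0.01. The cause of these changes was not tested. Low signal limits Npas2, Per3 and Cry1.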
